A study of Homo sapiens with 4 samples.

Results

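NNMT and 9 enzymes of the methionine cycle, of serine synthesis and of mitochondrial folate metabolism were compared between human embryonic stem cells (hESCs) in the naïve and in the primed state. The 10 genes, NNMT, MAT2A, MAT2B, AHCY, PHGDH, PSAT1, PSPH, SHMT2, MTHFD2 and MTHFD1L, were taken by name and not by a threshold on their values. They held 143 of the 242542 transcripts that could be matched to a gene, and all 10 were among the 27633 genes with enough counts to be tested. The value of a gene was the count of its transcript with the largest mean count over the libraries.

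Complementary DNA was sequenced on the Nanopore platform from wild-type H1 cells, an established hESC line. The naïve hESCs were derived from H1 primed hESCs and grown in the FINE condition, 2 libraries, and the primed hESCs were grown in mTeSR, 2 libraries. According to the study's methods, the naïve medium held kinase inhibitors (dasatinib, AZD5438, SB590885 and PD0325901) with Y-27632, LIF, Activin A, bFGF and added non-essential amino acids. The naïve cells were kept at low oxygen on Matrigel with reduced growth factors, and the primed cells in normal oxygen on Matrigel. Medium, oxygen, type of Matrigel and cell state therefore changed together and cannot be told apart. The labels do not say that the 2 libraries of a state came from separate cultures, so p-values measure the spread between these libraries, which may be technical.

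The deposited totals were between 129276054 and 161548901 counts per library, where a count is an alignment over the whole span of a transcript, introns included and either strand. An alignment was counted for every span it touched and at every place it aligned to, so a gene with another gene or a pseudogene inside its span also carried the counts of that gene. CPM denotes counts scaled to 1000000 per library after TMM scaling, with 1 transcript per gene, and a log2 fold change above 0 means higher in primed hESCs. A gene was called where its p from edgeR's quasi-likelihood test, adjusted by Benjamini-Hochberg over all genes tested, was under 0.05. All 8 naïve markers were lower in primed hESCs and all 8 primed markers were higher. KLF17, a naïve marker with a log2 fold change of -0.41, stood at 0.23 when the libraries were scaled by library size alone. A gene inside the span of KLF17 had 99.2% of its count, so this value may hardly measure KLF17. For DNMT3L, THY1 and SALL2 such genes had 92.0%, 92.0% and 68.7% of the count. Of 4 pluripotency markers shared by the states, SOX2 and LIN28A were higher in primed hESCs at 2.38 and 2.11, and NANOG was lower at -1.62. POU5F1, the remaining one, was not called at -0.05 with TMM and was higher at 0.59 with library size.

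In the methionine cycle, methionine adenosyltransferase joins methionine to ATP to make S-adenosylmethionine, the methyl donor of DNA, histone and RNA methylation. After the methyl group is passed on, AHCY splits the S-adenosylhomocysteine that is left. NNMT spends S-adenosylmethionine on methylating nicotinamide, and it is known as a gene of the naïve state of human pluripotent cells. PHGDH, PSAT1 and PSPH make serine from a glycolytic intermediate, and SHMT2, MTHFD2 and MTHFD1L carry its 1-carbon unit through folate intermediates in mitochondria to formate.

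Of the 10 genes, 9 passed the test between the states, 4 higher (MAT2A, AHCY, PHGDH and PSAT1) and 5 lower (NNMT, MAT2B, PSPH, MTHFD2 and MTHFD1L) in primed hESCs, and SHMT2 did not pass. Over all genes tested 70% passed, 37.4% higher and 32.6% lower, so a count of 9 in 10 is not far from the background. In 9 of the 10 genes the 2 naïve libraries did not overlap the 2 primed libraries, SHMT2 again being the exception, beside 84.4% of all genes. With library size this held for 8, without MAT2B and MTHFD2, beside 85.6% of all genes. The median log2 fold change of the 10 genes was -0.28, beside 0.08 over all genes. Scaling by library size in place of TMM moved the median of all genes by 0.64 on the log2 scale, to 0.72, and that of the 10 genes to 0.36. With that scaling 72.5% of all genes and 7 of the 10 passed, 5 higher and 2 lower beside 56.2% and 16.3% of all genes, SHMT2 passed as higher at 0.53, and MAT2B, PSPH and MTHFD2 no longer passed. DESeq2 called 58.7% of all genes and 7 of the 10, without AHCY and PSAT1.

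**Figure D1:**
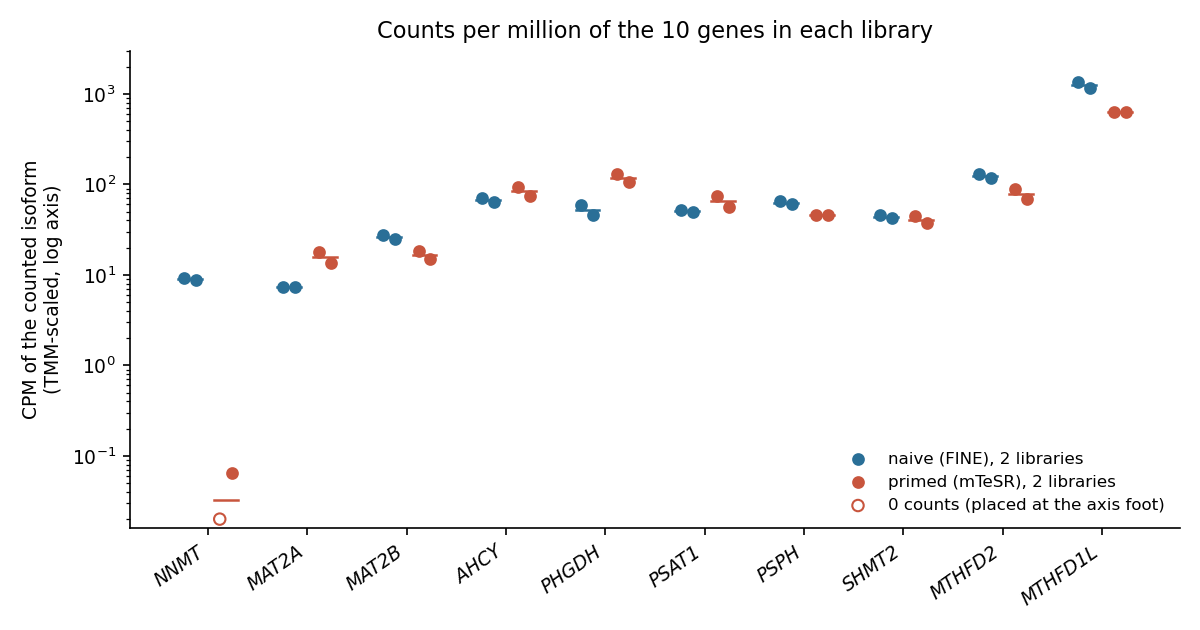
CPM of the counted isoform of each gene (log axis), with 1 point per library and a line at the mean of each state. The 2 naïve libraries of NNMT lie at 9.36 and 8.77 CPM while the primed libraries lie at 0 (open circle, placed at the foot of the axis) and 0.07 CPM. Every other gene differs by 2.25-fold or less. Most alignments counted for MTHFD1L lie over a pseudogene inside its span.

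NNMT (chr11:114257787-114313536, plus strand, GRCh38) showed the largest difference of the 10. NNMT-203 was counted over 55.5 kb with 5 exons and had 216 and 224 counts in naïve hESCs against 0 and 2 in primed hESCs. The naïve libraries were close to each other at 9.06 ± 0.41 CPM (mean ± SD, n = 2), and primed hESCs were nearly without the transcript. From the summed counts of 440 and 2, scaled by TMM, the level in naïve hESCs was 272 times that in primed hESCs, with a 95% exact counting interval of 74.9 to 2255. This interval covers counting error only, since reads carry no molecular identifiers. The adjusted p was 2.2e-20 in edgeR's quasi-likelihood test, with a fitted log2 fold change of -7.90 that depends on the prior count. The limit set by 0 counts in primed replicate 1 is 3 counts, or 0.102 CPM, and without primed replicate 2 no primed count is left. With a library left out the fitted log2 fold change ran from -7.02 without primed replicate 1 to -10.88 without primed replicate 2.

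The NNMT alignments were concentrated on the part of the gene covered by NNMT-208, with 200 of 216 counts in naïve replicate 1 and 205 of 224 in naïve replicate 2, and both primed counts fell there. NNMT-202, a transcript in the distal upstream part of the gene, had 0 counts in all 4 libraries. All of NNMT lies within the span of an antisense long non-coding gene, ENSG00000256947, which had 221 and 227 counts in naïve and 18 and 24 in primed hESCs. Strand was not used in counting, and outside NNMT-203 this gene was left with 5 and 3 counts in naïve against 18 and 22 in primed hESCs.

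Markers of other cells were read beside NNMT. Of 9 trophoblast or amnion markers, 8 were lower in primed hESCs, and their summed level was 1669 and 2002 CPM in the naïve libraries against 8.96 and 6.48 CPM in the primed libraries. Most of it was CGA, a subunit of chorionic gonadotropin, at 1548 and 1862 CPM in naïve hESCs and at 0 and 0.03 CPM in primed hESCs. GATA3 stood at 42.3 and 45.1 CPM against 0.51 and 0.52 CPM, and TFAP2A at 35.7 and 39.5 CPM against 0.10 and 0 CPM. A gene inside the span of TFAP2A had 65.0% of its count, and TFAP2A stood at -10.7 on an isoform free of overlap. KRT7 was not called, with a gene inside its span that had 78% of its count. On an isoform free of overlap KRT7 was higher in primed hESCs at 0.97 (edgeR adjusted p = 0.0047). With library size 7 of these markers were lower and 1, KRT7, was higher. The part of such cells in the NNMT result was not tested, and in bulk RNA a change in cell numbers and a change per cell cannot be told apart. Markers of fibroblasts, a cell type known for NNMT, were near 0 in the naïve libraries, where the 5 of them summed to 3.55 and 2.55 CPM, DCN had 1 and 0 counts and LUM had 1 and 0 counts. In the primed libraries the sum was 57.6 and 59.5 CPM, nearly all from COL1A1 and COL1A2. There DCN had 0 and 1 counts and LUM had 5 and 4, and COL3A1 was not called with TMM. The part of fibroblasts in the NNMT result was not tested. The 4 endoderm markers summed to between 1.29 and 4.15 CPM in the 4 libraries.

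The protein-coding genes whose pattern over the 4 libraries was most like that of NNMT were FYB1, LGALS3, ENDOU, SOAT1 and LYPD5, by the Euclidean distance between centred log2(CPM + 1) values among 12302 genes. Their distances were between 0.0447 and 0.0946. FYB1 had 238 and 258 counts in naïve and 3 and 6 in primed hESCs, and LGALS3, which encodes a galectin, had 1136 and 1160 against 114 and 122. Likeness on this scale depends on the number added before the logarithm, and it rests on 4 libraries in 2 states.

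The catalytic and the regulatory subunit of methionine adenosyltransferase moved in opposite directions. MAT2A (chr2:85539168-85545281, plus strand), which encodes the catalytic subunit, had 170 and 186 counts in naïve against 534 and 418 in primed hESCs, or 7.32 ± 0.06 and 15.9 ± 3.19 CPM. Both primed libraries were above both naïve libraries, with the mean more than doubled (log2 fold change 1.11 ± 0.18 SE, edgeR adjusted p = 4.0e-07). MAT2B (chr5:163503114-163519558, plus strand), which encodes the regulatory subunit, had 634 and 640 counts in naïve against 541 and 456 in primed hESCs, or 26.3 ± 1.70 and 16.6 ± 2.48 CPM. It was 1.58-fold higher in naïve hESCs (log2 fold change -0.66 ± 0.16 SE, edgeR adjusted p = 2.7e-04), but with library size the log2 fold change was -0.02.

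The balance of the 2 subunits does not depend on the scaling. Within a library, MAT2A made up 21.1% and 22.5% of the counts of both genes in naïve hESCs and 49.7% and 47.8% in primed hESCs. The Wilson 95% intervals ran from 18.5% to 25.5% over the naïve and from 44.5% to 52.7% over the primed libraries. Each interval covers counting error within its library and not the spread between libraries. The ratio of MAT2A to MAT2B counts was 0.28 ± 0.02 in naïve and 0.95 ± 0.05 in primed hESCs, a 3.41-fold difference that is many times the spread between replicates. With 2 libraries a state, an exact two-sided permutation test cannot go below 0.333, so no test was made of shares and ratios. The end of MAT2A-201 overlaps GGCX, and on MAT2A-202, which overlaps no other gene, the counts were 123 and 127 against 443 and 311 with a log2 fold change of 1.33 (edgeR adjusted p = 1.2e-06).

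AHCY (chr20:34280268-34311802, minus strand), the hydrolase of S-adenosylhomocysteine, had 1619 and 1628 counts in naïve against 2752 and 2300 in primed hESCs, or 66.9 ± 4.50 and 84.2 ± 13.1 CPM. With library size the AHCY log2 fold change was 0.97 (edgeR adjusted p = 2.9e-06). With TMM the primed libraries were both higher, by 1.26-fold on average, and the difference passed narrowly (log2 fold change 0.33 ± 0.15 SE, edgeR adjusted p = 0.043). It no longer passed with DESeq2 (adjusted p = 0.12) nor without naïve replicate 1, naïve replicate 2 or primed replicate 1, where the adjusted p went up to 0.45. Relative to MAT2B within a library, AHCY counts were 2.55 ± 0.01 in naïve and 5.07 ± 0.03 in primed hESCs.

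The 3 genes of serine synthesis did not move together. PHGDH (chr1:119648411-119744218, plus strand), which encodes the dehydrogenase of the first step, had 1350 and 1183 counts in naïve against 3835 and 3239 in primed hESCs, or 52.4 ± 8.59 and 118 ± 17.4 CPM. It was 2.25-fold higher in primed hESCs (log2 fold change 1.17 ± 0.15 SE, edgeR adjusted p = 6.4e-09). Both primed libraries, at 130 and 106 CPM, lay above both naïve libraries, at 58.5 and 46.3 CPM.

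PSAT1 (chr9:78297125-78330093, plus strand), the aminotransferase of the second step, had 1196 and 1251 counts in naïve against 2171 and 1736 in primed hESCs, or 50.4 ± 1.99 and 65.1 ± 12.1 CPM. It was 1.29-fold higher (log2 fold change 0.37 ± 0.15 SE, edgeR adjusted p = 0.026), and this did not pass with DESeq2 (adjusted p = 0.087) nor without naïve replicate 2 or primed replicate 1 (adjusted p up to 0.44). With library size the PSAT1 log2 fold change was 1.01 (edgeR adjusted p = 3.1e-06). PSPH (chr7:56011051-56051604, minus strand), the phosphatase of the last step, had 1502 and 1537 counts in naïve against 1345 and 1393 in primed hESCs, or 62.6 ± 3.44 and 45.5 ± 0.19 CPM. It was 1.38-fold higher in naïve hESCs (log2 fold change -0.46 ± 0.14 SE, edgeR adjusted p = 0.0046), whereas with library size the log2 fold change turned to 0.18 (adjusted p = 0.24).

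Among the counts of these 3 genes, PHGDH held 31.6% ± 2.52 in naïve and 51.5% ± 0.92 in primed hESCs (n = 2 each), and PSPH held 37.9% ± 1.13 and 20.1% ± 2.53. The share of PSAT1 was 30.5% ± 1.38 and 28.4% ± 1.61, and its libraries lay between 27.3% and 31.5%. The count ratio of PHGDH to PSPH was 0.83 ± 0.09 in naïve and 2.59 ± 0.37 in primed hESCs. These shares are free of the scaling between libraries, but they compare transcripts of different length and rest on a PSPH count that may hold alignments from a pseudogene.

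**Figure D2:**
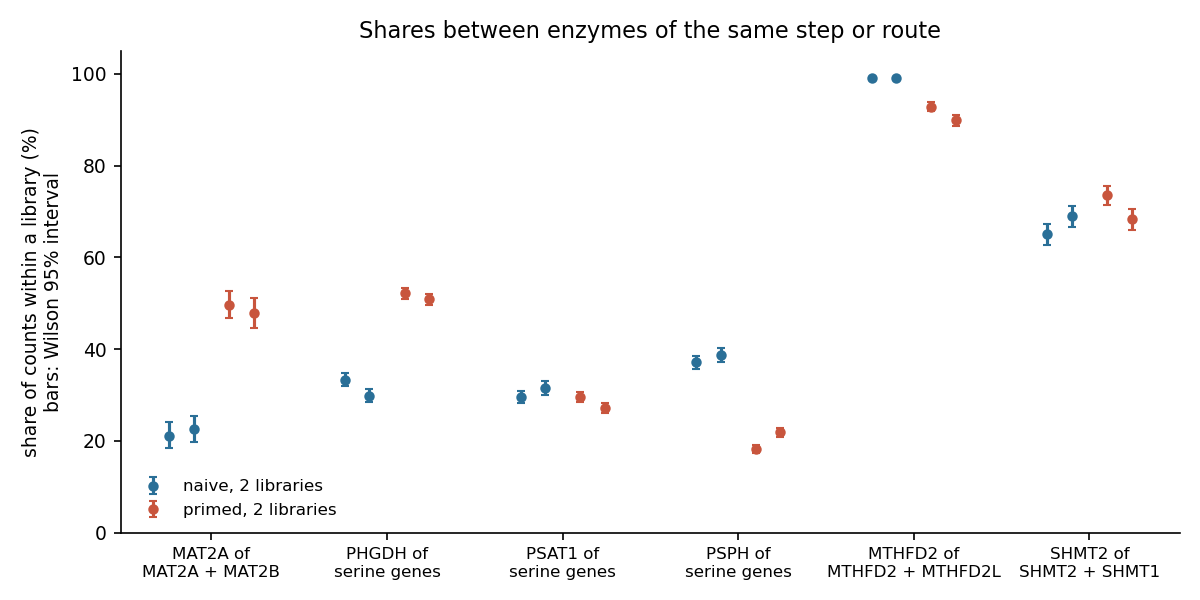
Share of counts within each library (%, 1 point per library, Wilson 95% interval as bars) for pairs or trios of enzymes of the same step or route. The bars cover counting error within a library only. MAT2A rises from 21.8% to 48.8% of the MAT2A and MAT2B counts and PHGDH from 31.6% to 51.5% of the serine genes, while the libraries of the states overlap for SHMT2 within SHMT2 and SHMT1.

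PSPH has a close copy with counts of like size. PSPHP1 (chr7:55764797-55773288, plus strand), an unprocessed pseudogene that overlaps no other gene, had 1120 and 1171 counts in naïve and 927 and 970 in primed hESCs, 75.4% ± 1.15 and 69.3% ± 0.50 of the PSPH count. In the reference genome its annotated span aligned to the PSPH coding sequence in 2 blocks that cover 258 of 678 bases, with 253 identical. A read with alignments at both places added to both counts, and how many reads did so was not tested, so the expression of PSPH and of PSPHP1 cannot be told apart here. The other 18 pseudogenes named after members had at most 24 counts in any library.

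In mitochondrial folate metabolism, SHMT2 (chr12:57229573-57234935, plus strand), which takes the 1-carbon unit off serine, had 1050 and 1090 counts in naïve against 1321 and 1137 in primed hESCs, or 44.1 ± 1.98 and 40.9 ± 5.51 CPM. The libraries of the states overlapped and the log2 fold change was -0.11 ± 0.15 SE (edgeR adjusted p = 0.53), turning to 0.53 with library size (adjusted p = 0.0023) and to 0.025 without primed replicate 2. MTHFD2 (chr2:74186172-74217565, plus strand), the mitochondrial dehydrogenase and cyclohydrolase, had 2999 and 2992 counts in naïve against 2603 and 2118 in primed hESCs, or 124 ± 9.0 and 78.7 ± 13.7 CPM. It was 1.57-fold higher in naïve hESCs (log2 fold change -0.65 ± 0.15 SE, edgeR adjusted p = 1.5e-04), but stood at -0.01 with library size (adjusted p = 0.95).

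MTHFD2-201 overlaps SLC4A5 and the gene ENSG00000264324. On MTHFD2-206, which covers the first part of MTHFD2-201 and overlaps no other gene, the counts were 2223 and 2114 against 2223 and 1679, and the log2 fold change was smaller at -0.42 (edgeR adjusted p = 0.019), while the ratio of means scaled by library size was 0.18 on the log2 scale. That part held 72.4% ± 2.45 of the MTHFD2-201 count in naïve and 82.3% ± 4.33 in primed hESCs. MTHFD2L, a paralog with the same reaction, had 30 and 29 counts in naïve against 201 and 240 in primed hESCs (log2 fold change 2.59, edgeR adjusted p = 1.6e-12). MTHFD2 nevertheless made up 99.0% of the counts of both paralogs in naïve and 91.3% ± 2.13 in primed hESCs.

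MTHFD1L (chr6:150865679-151101887, plus strand), the mitochondrial formate-producing synthetase, had by far the highest value of the 10 genes, 31494 and 29566 counts in naïve against 18469 and 19485 in primed hESCs, or 1261 ± 146 and 631 ± 5.66 CPM. Its log2 fold change by this count was -0.999 ± 0.14 SE (edgeR adjusted p = 5.1e-08), but most of the count lay on a pseudogene. Inside the last intron of MTHFD1L-203, intron 27, lies RPL32P16 (chr6:151099529-151099933, plus strand), a processed pseudogene of 405 bases of the ribosomal protein gene RPL32. RPL32P16 had 30497 and 28501 counts in naïve and 17574 and 18453 in primed hESCs, 96.6% ± 0.31 and 94.9% ± 0.32 of the MTHFD1L count.

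RPL32P16 aligned to the RPL32 coding sequence with 392 of 406 aligned positions identical. The 120 bases shown, chosen as the stretch without gaps in which the sequences differ most, are read from the reference genome (RPL32P16 at chr6:151099589-151099708, plus strand, and coding bases 64 to 183 of RPL32-204). Capitals mark the 7 positions that differ, and most of the stretch is the same in both:
RPL32P16: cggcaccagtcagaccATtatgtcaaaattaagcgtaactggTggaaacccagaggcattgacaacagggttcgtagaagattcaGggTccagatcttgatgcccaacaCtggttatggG
RPL32: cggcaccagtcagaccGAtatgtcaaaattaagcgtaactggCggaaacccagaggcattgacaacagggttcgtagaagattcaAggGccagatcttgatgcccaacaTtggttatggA

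The RPL32 gene itself stood at 1692 and 1419 CPM in naïve and at 791 and 808 CPM in primed hESCs, with a log2 fold change of -0.96, and RPL32P16 stood at 1321 and 1116 CPM against 597 and 601 CPM, with a log2 fold change of -1.02. A further pseudogene, RPL32P18, which differs from the RPL32 coding sequence at 7 of 408 bases, had 34941 counts in naïve replicate 2, where RPL32 had 36242. The other 34 pseudogenes named after RPL32 had at most 498 counts in any library. RPL32 and both of these pseudogenes, which are close to identical in sequence, carried counts of like size with a like difference between the states. How many of the reads over RPL32P16 came from its own transcription was not tested.

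The first part of MTHFD1L, away from both of its pseudogenes, was also lower in primed hESCs. MTHFD1L-202, which covers the first 60.2 kb with 11 exons and overlaps no other gene, had 496 and 491 counts in naïve against 237 and 278 in primed hESCs, or 20.4 ± 1.59 and 8.55 ± 0.72 CPM. It was 2.38-fold higher in naïve hESCs, a log2 fold change of -1.20 ± 0.16 SE (edgeR adjusted p = 4.5e-07 among 13429 genes with such an isoform), and the ratio of means scaled by library size was -0.61 on the log2 scale. With the alignments of RPL32P16 and of ARL4AP5, a processed pseudogene in intron 11, taken off MTHFD1L-203, 966 and 1026 counts were left in naïve and 668 and 844 in primed hESCs, a 1.63-fold difference between 41.0 ± 1.17 and 25.1 ± 3.41 CPM with TMM. With library size this remainder differed by only 1.05-fold and its libraries overlapped. ARL4AP5 went the other way, with 31 and 39 counts against 227 and 188, which also raised MTHFD1L-207, whose span holds it. The short span of MTHFD1L-210 in the middle of the gene had 89 and 126 counts in naïve against 156 and 200 in primed hESCs, and MTHFD1L-205 had 23 and 38 against 41 and 37.

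**Figure D3:**
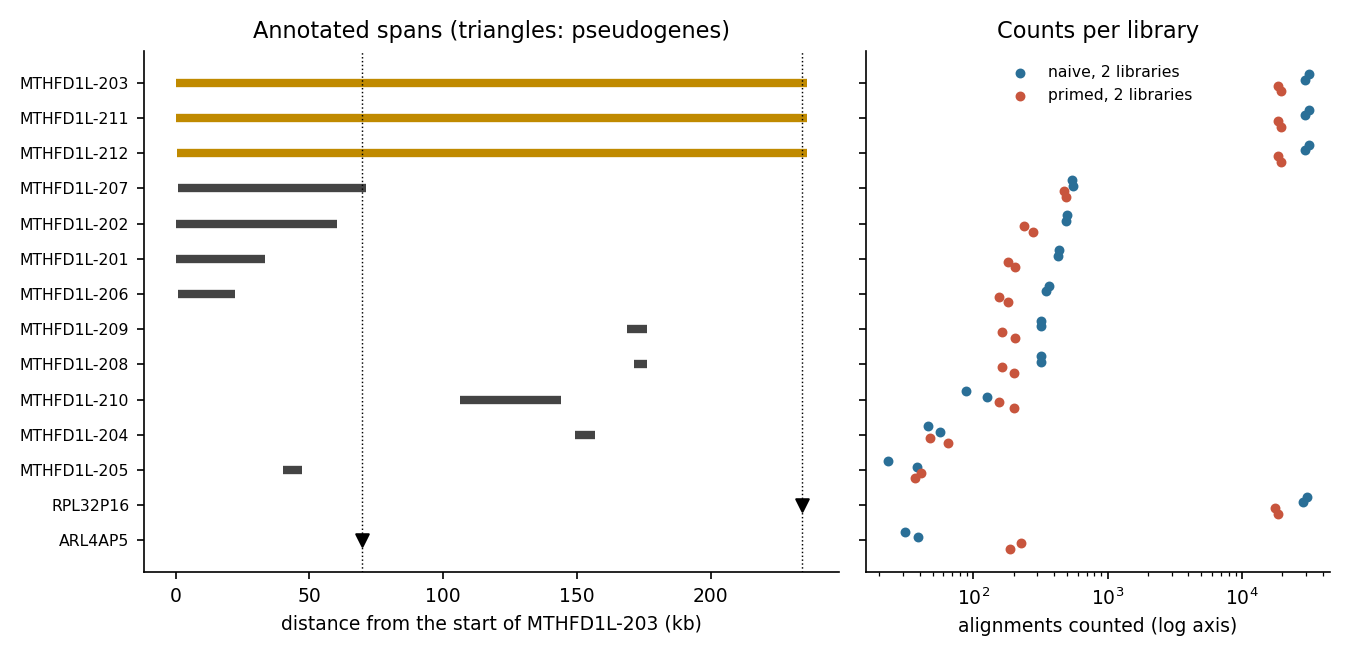
Left, spans of the annotated MTHFD1L isoforms and of 2 pseudogenes as distance from the start of MTHFD1L-203 (kb), with isoforms that enclose RPL32P16 in gold. Right, counts in each library (log axis); MTHFD1L-203 has between 18469 and 31494 counts and the other 2 isoforms in gold lie beside it, close to RPL32P16 itself, while every isoform in grey lies far to the left.

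Among the other members, MAT2B, PHGDH, PSAT1 and PSPH overlapped no other annotated gene, and 9 of the 10 genes had an isoform free of overlap, NNMT being the exception. On these isoforms, with TMM, all 9 kept the direction they had by the counted isoform, and 8 passed the test, again without SHMT2. Over all genes, 9351 of the 13429 tested on such an isoform passed. AHCY-205, the counted isoform, encloses a long non-coding gene, ENSG00000272945, with 1473 and 1463 counts in naïve and 2546 and 2017 in primed hESCs. AHCY-202, free of overlap, stood at 60.0 ± 4.27 CPM in naïve and 74.6 ± 14.6 CPM in primed hESCs, a log2 fold change of 0.36 (edgeR adjusted p = 0.035).

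**Figure D4:**
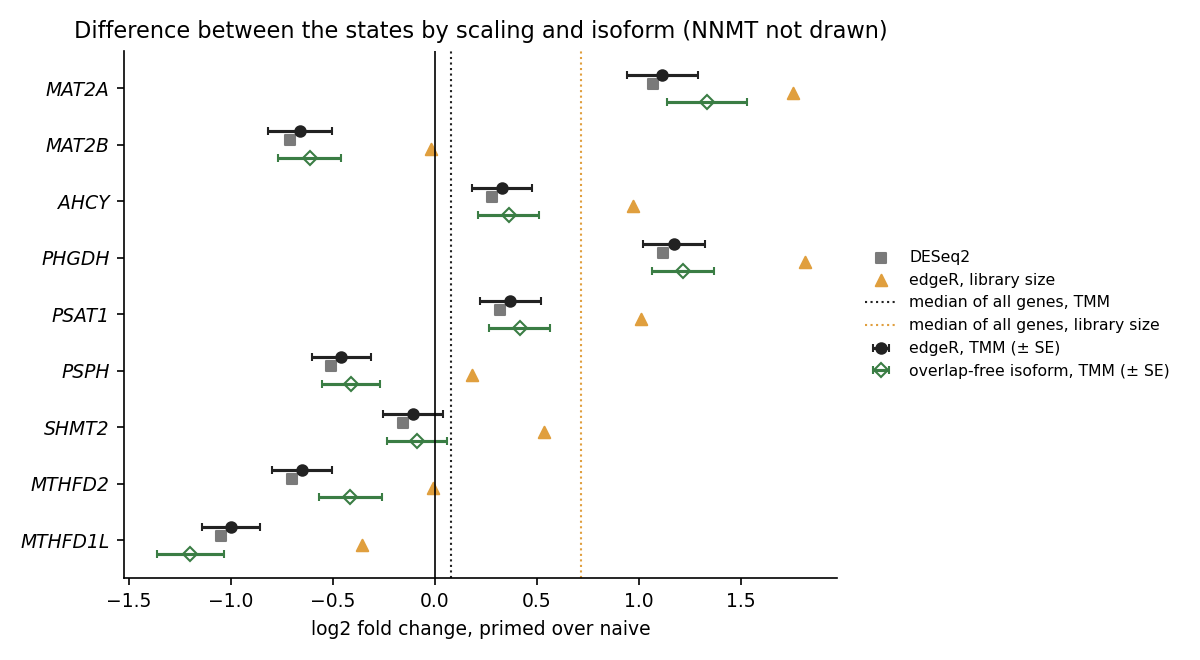
Log2 fold change, primed over naïve, of 9 genes under TMM scaling (± SE), DESeq2 and library size, and on the isoform that overlaps no other gene (± SE). The dotted lines are the medians of all genes, 0.08 with TMM and 0.72 with library size; MAT2A and PHGDH lie above both medians and MTHFD1L below both, while PSPH and SHMT2 lie on different sides of 0 under the 2 scalings.

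Levels of different genes were compared per kb of exon of the counted isoform, although counts over introns make this scale approximate. Leaving MTHFD1L aside, and with PSPH subject to the limit set by PSPHP1, naïve hESCs had PSPH at 31.7 CPM per kb, AHCY at 28.3, MTHFD2 at 28.1, PSAT1 at 22.8, SHMT2 at 20.4, PHGDH at 20.3, MAT2B at 11.8, NNMT at 4.86 and MAT2A at 2.60 CPM per kb. Of neighbours in that order, AHCY and MTHFD2 overlapped between libraries, as did SHMT2 and PHGDH. In primed hESCs PHGDH came first at 45.6 CPM per kb, ahead of AHCY at 35.6, PSAT1 at 29.5, PSPH at 23.1, SHMT2 at 19.0, MTHFD2 at 17.9, MAT2B at 7.46, MAT2A at 5.63 and NNMT at 0.02 CPM per kb, with overlap between AHCY and PSAT1 and between SHMT2 and MTHFD2. MTHFD1L-202 stood at 20.4 CPM per kb in naïve and at 8.59 CPM per kb in primed hESCs.

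No isoform of these genes was called for a change of usage. Of 117 isoforms of the 10 genes that entered the test, 0 were called at an adjusted p under 0.05 and a change of isoform fraction (dIF) beyond 0.1, beside 0.579% of all isoforms tested. In edgeR's test of isoforms against the rest of their gene, 7 had an unadjusted p under 0.05, and 2 passed after adjustment, MTHFD1L-210 (adjusted p = 4.9e-06) and MTHFD1L-205 (adjusted p = 0.027), with too small a change of isoform fraction to be called. For MTHFD1L this was fixed by the counts, since MTHFD1L-203 and MTHFD1L-212, which hold the RPL32P16 alignments, each made up 47.8% or 47.9% of the gene. They left at most 1.22% to any other isoform. Isoforms of PHGDH held at most 4.04% of their gene, those of SHMT2 3.90% and those of MTHFD2 7.16%. None of these could fall by 0.1, so the lack of calls there says little about usage. Over the 10 genes, the largest change of isoform fraction was 0.02, in MAT2A. The 7 isoforms of NNMT had no isoform fraction because primed replicate 1 had no count. Isoforms that share most of their span share most of their counts, so this test can see only differences in where the alignments lie. In PSPH no isoform passed the test. Of the alignments on PSPH-201, 6.19% ± 0.01 in naïve and 16.3% ± 3.06 in primed hESCs lay only outside the span of PSPH-211, towards either end of the gene. This share was not tested, and alignments from PSPHP1 may enter it.

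Promoter windows of RefSeq (GRCh38.p14), from 250 bases before to 50 bases after a start, were at hand for 7 of the 10 genes, without NNMT, PSPH and SHMT2. They were searched on both strands for the C/EBP-ATF response element (CARE, TGATGNAAN), the E-box (CACGTG) and the cyclic AMP response element (CRE, TGACGTCA), which are found in 3.61%, 7.26% and 1.85% of all 35116 windows. Only MTHFD1L windows held any, a CARE and an E-box, shown with the motif in capitals because CARE is the element through which ATF4 is known to act on amino acid response genes. Both matches lie near the alternative starts of MTHFD1L, at chr6:150866357-150866365 and chr6:150866332-150866337, on the plus strand, and do not overlap each other:
MTHFD1L CARE: ccgccggctcTGATGCAATcgcgccgggc
MTHFD1L E-box: cgcccggctcCACGTGcgcagccggc

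A match describes these letters and is not evidence of a bound site. The other 6 genes with a window, among them PHGDH and PSAT1, did not hold these letters within it.

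Genes of the neighbouring pathways were read from 6 lists of 79 genes in all, of which 21 were higher and 35 lower in primed hESCs and 23 did not pass, with a median log2 fold change of -0.25 beside 0.08 over all genes. The share called, 70.9%, was close to the 70% of all genes. With library size the balance turned, to 42 higher and 16 lower, beside 56.2% higher and 16.3% lower over all genes.

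Of 11 amino acid response genes outside the members, 9 were lower, 1 was higher and 1 did not pass, with a median of -1.35. Over all genes 32.6% were lower and 37.4% higher. ASNS, the gene that did not pass, stood at 0.007 with TMM and was higher at 0.65 with library size (edgeR adjusted p = 9.9e-04). TRIB3, a pseudokinase, had 251 and 273 counts in naïve against 63 and 64 in primed hESCs (log2 fold change -2.35, edgeR adjusted p = 1.6e-13), and the transcription factors ATF3 and DDIT3 stood at -2.22 and -2.06, the latter with another annotated gene inside its span that had 51.5% of its count. CHAC1, which degrades glutathione, was higher at 0.74. With library size 6 were lower and 2 higher, and ATF4 itself, at -0.61 with TMM, stood at 0.03. Among the members, PHGDH and PSAT1, known as ATF4 targets, were called higher, the latter not with DESeq2. PSPH and MTHFD2, also known as such, were called lower, though not with library size. MTHFD1L, with a CARE in its windows, was called lower with both scalings, by a count that lay mostly on RPL32P16. SHMT2 was not called with TMM and was higher with library size.

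In the methionine cycle and methionine salvage, 7 of 19 genes were higher, 9 lower and 3 did not pass, with a median of -0.26, and with library size 9 were higher and 5 lower. CBS, which draws homocysteine into cysteine synthesis, had 376 and 357 counts in naïve against 1432 and 1415 in primed hESCs (log2 fold change 1.65, edgeR adjusted p = 1.2e-12). MTAP, which salvages methylthioadenosine, was higher at 1.64 with a gene inside its span that had 34.5% of its count, and the spermine synthase SMS at 0.64. ODC1, the first enzyme of polyamine synthesis, had 446 and 315 counts against 46 and 63 (log2 fold change -3.12, edgeR adjusted p = 1.7e-16), and the spermidine synthase SRM and the salvage enzyme ADI1 stood at -1.30 and -1.49. These 6 genes kept their direction with library size. MAT1A, the liver form of the MAT2A enzyme, was named after its values were seen and had 3 and 4 counts in naïve against 44 and 37 in primed hESCs.

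Of 19 genes of the folate cycle and of serine and glycine cleavage, 5 were higher, 7 lower and 7 did not pass, whereas with library size 12 were higher and 3 lower. The folate receptor FOLR1 had 972 and 969 counts in naïve against 18 and 27 in primed hESCs (log2 fold change -5.73, edgeR adjusted p = 5.4e-26). GCSH and DLD, subunits of the glycine cleavage system, were lower at -1.53 and -0.97, although DLD stood at -0.40 on an isoform free of overlap with LAMB1. MTHFD2L and GGH, which trims folate polyglutamates, were higher at 2.59 and 0.82. The reduced folate carrier SLC19A1 was higher at 1.76 by its counted isoform, which encloses transcripts of COL18A1, and stood at -0.06 on an isoform free of overlap (edgeR adjusted p = 0.87). The cytosolic SHMT1 was lower at -0.39 with TMM and at 0.25 with library size, and SHMT2 held 67.0% ± 2.78 of the counts of both paralogs in naïve and 71.0% ± 3.72 in primed hESCs.

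In nicotinamide and NAD metabolism, the side on which NNMT acts, 3 of 16 genes were higher, 5 lower and 8 did not pass, with a median of 0.09, whereas with library size 10 were higher and 2 lower, with a median of 0.72. NMNAT2 and NMNAT3, enzymes that make NAD from its mononucleotide, were higher at 2.27 and 1.28, with genes inside their spans that had 34.5% and 43.2% of their counts, and the nicotinamide riboside kinase NMRK2 at 1.36. PNP, a nucleoside phosphorylase, had 3194 and 2362 counts in naïve against 1064 in both primed libraries (log2 fold change -1.71, edgeR adjusted p = 1.1e-12), and stood at -1.48 on an isoform free of the non-coding gene inside it. NADSYN1 and NADK, the NAD synthetase and NAD kinase, were lower at -1.22 and -0.89, the latter at -0.25 and no longer called with library size (edgeR adjusted p = 0.19). NAMPT, which returns nicotinamide to NAD and was named after its values were seen, was lower at -0.88, with 687 and 859 against 527 and 506 counts, and stood at -0.25 with library size, where it was not called (edgeR adjusted p = 0.15).

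Of 6 genes of choline, betaine and sarcosine metabolism, 3 were higher and 3 lower, and with library size 3 were higher and 0 lower. The choline kinase CHKA had 81 and 82 counts in naïve against 582 and 643 in primed hESCs (log2 fold change 2.60, edgeR adjusted p = 1.7e-16), and the choline dehydrogenase CHDH was higher at 2.54. PEMT, which uses S-adenosylmethionine to make phosphatidylcholine, was lower at -0.84 and at -0.20 with library size, while ALDH7A1 and DMGDH, lower at -0.61 and -0.42, stood at 0.03 and 0.22 with library size.

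Of 8 genes of purine synthesis, which takes up 1-carbon units from formate, 2 were higher, 2 lower and 4 did not pass, whereas with library size 6 were higher and 0 lower. ADSL and PAICS were higher at 0.76 and 0.41, while ATIC and PRPS1, lower at -0.63 and -0.36, stood at 0.01 and 0.28 with library size.

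**Figure D5:**
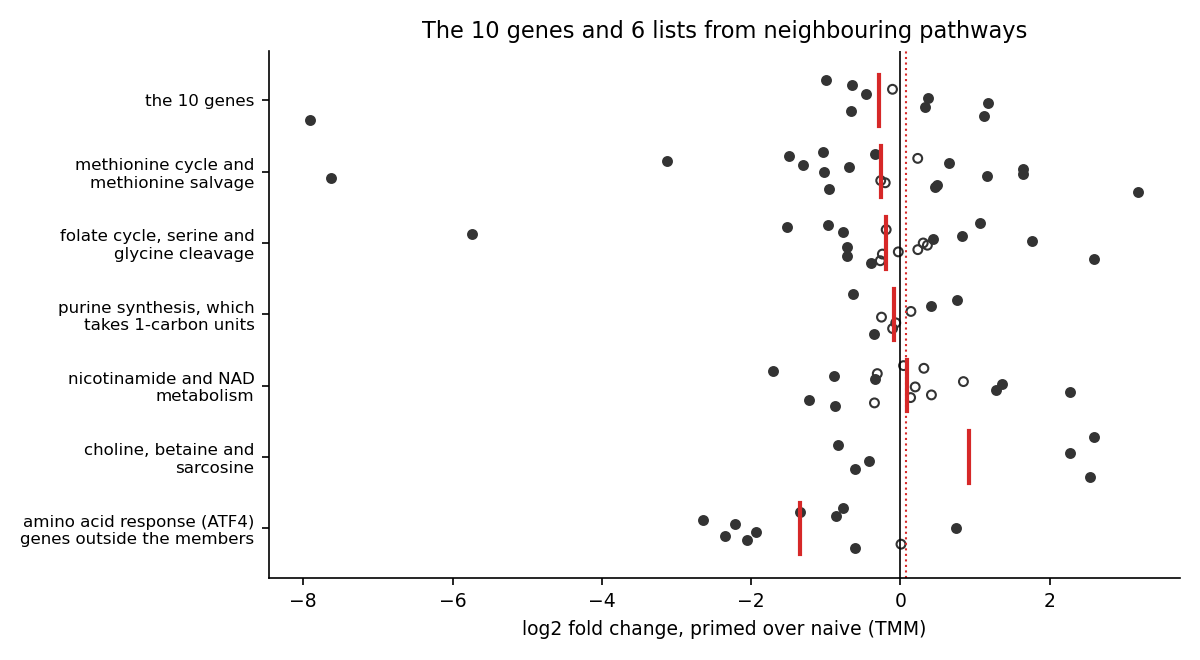
Log2 fold change, primed over naïve, of the 10 genes and of the tested genes of 6 lists, with 1 point per gene, filled where the test was passed, a red bar at each median and a dotted line at the median of all genes (0.08). The amino acid response list lies lowest, with a median of -1.35, and the other medians lie between -0.28 and 0.92.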

How the data were processed

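The authors deposited raw counts per transcript for each library, made by them with minimap2 alignment to GRCh38 and featureCounts 2.0.0 on Ensembl release 105. According to the file headers, whole transcript spans were counted with multiple overlaps and multiple alignments kept and strand ignored. Symbols came from GENCODE release 44 through the transcript identifiers, which matched for 242542 of 244825 transcripts, and unmatched transcripts (1.0% of counts) were left out. The total of a library ranged from 129276054 to 161548901 counts. Replicates differed by more than sampling noise, with a chi-square of 15.2 (naïve) and 8.89 (primed) per degree of freedom over genes.

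A gene needed 10 counts or more in 2 or more libraries and was tested with edgeR 4.0.16 in R 4.3.3, by the quasi-likelihood test after TMM scaling with the state as the term. Isoforms with identical counts were collapsed and tested against the rest of their gene with diffSpliceDGE, and called at an adjusted p under 0.05 with dIF beyond 0.1. Both tests were two-sided. They were also run on simulated counts, which had the same dispersion in every gene and, unlike the deposited counts, independent isoforms. That run does not show how often calls on the deposited counts are false. DESeq2 1.42.0 was an alternative. Python 3.11.15 called bedtools 2.31.1 for overlapping spans and blastn 2.17.0 for alignments.

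The genes named were the 10 members, up to 3 called genes per direction of each list with a mean count of at least 50, the 5 genes most like NNMT, pseudogenes named after members, and genes overlapping them. Other genes, RPL32 and its pseudogenes among them, were picked with their values in view. The members and lists were chosen with earlier results of these data known.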

Additional observations from a re-analysis of the deposited data

How the results depend on the processing

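Of 139 log2 fold changes of the 10 genes under other settings, 122 kept their direction and their side of the threshold, 14 kept the direction but no longer passed, and 3 turned. The number of genes called, 19337, was 11411 with protein-coding genes only and 9351 on isoforms that overlap no other gene, an alternative chosen after seeing the data. In both cases fewer genes were tested. Of the 10 genes, 9 were called. With a log2 fold change over 1 also required, 3 of the 10 (NNMT, MAT2A and PHGDH) were called, beside 13015 of all 27633 genes tested. Calls lost were AHCY in 7 settings and PSAT1 in 5 (adjusted p from 0.051 to 0.45), and MAT2B and MTHFD2 with library size (0.91 and 0.95). PSPH turned with library size (0.18), and SHMT2 with library size (0.53) and without primed replicate 2 (0.025, the highest of -0.25 to 0.025 over the libraries left out). The cause was not tested. Of all isoforms, 699 were called, 1674 at a dIF threshold of 0.05 and 221 at 0.2, and between 283 and 359 with a library left out, where the lone library is assumed to vary like the others. Among the members 0 were called under every alternative run.

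The replicate numbers are shared by the states but do not pair the libraries by the labels, and the deviations of same-numbered libraries correlated at 0.097 over 17616 genes. With the replicate number as a block, 19689 genes and 596 isoforms were called, and the same 9 members passed. With 2 libraries a state, differences as small as that of SHMT2 could not be resolved.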
